A study of Mus musculus with 20 samples.

Results

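The genes described here are 10 members of a cluster of Krüppel-associated box (KRAB) zinc finger genes on chromosome 4 that lies beside Tnfrsf1b, the gene of tumor necrosis factor receptor 2 (TNFR2). They are Zfp990, Zfp980, Znf41-ps, Zfp600, Zfp992, Zfp981, Zfp993, Zfp982, Zfp985 and Zfp984, in the order of their positions, and they are 10 of 35240 genes by symbol in the expression table. They were selected on their levels in WT and Tnfr2-/- libraries and on their place near the targeted gene, after the difference between genotypes was known. That difference is therefore described below and not tested, and the tests are those of time, of its interaction with genotype, and of mouse against mouse.

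RNA was sequenced from colonic organoids (colonoids), epithelial structures grown in a gel matrix from crypts of the mouse colon. WT cultures came from C57BL/6 mice, and Tnfr2-/- cultures came from mice of the strain B6.129S2-Tnfrsf1b tm1Mwm/J, in which the receptor gene is disrupted in the whole body. The mice were male and female and 8 weeks old, and both genotypes were grown and passaged alike without further treatment. For each genotype, 2 mice gave 1 library each on days 1, 2, 3, 5 and 7 post-passage, so that 10 WT libraries stood against 10 Tnfr2-/- libraries. The replicate number was read as the mouse, so that the 5 libraries of a mouse are repeated samples of 1 animal, and each genotype rests on 2 animals. The targeted allele was made in a 129 strain and moved into C57BL/6. DNA of the 129 strain around the allele is therefore carried with it to an extent not analysed here, and for genes this close to Tnfrsf1b the loss of the receptor and the strain of the flanking DNA cannot be told apart.

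KRAB zinc finger proteins bind DNA through rows of C2H2 zinc fingers, each of which reads a few bases, and their KRAB box recruits the corepressor TRIM28 with histone methyltransferases such as SETDB1. They are known for silencing retrotransposons, and they arose in large clusters by repeated duplication of neighbouring genes. Neighbours in such a cluster can therefore be nearly identical in sequence, and clusters differ between mouse strains. Roles of the single members in the colon are not stated here.

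The cluster spans 2.3 Mb of GRCm38, chr4:145510759-147809788, with 76 other annotated genes between its outermost members, of which 64 were in the table. Zfp990 begins 263.9 kb from the end of Tnfrsf1b (chr4:145213463-145246870, minus strand) and Zfp984 begins 2507 kb from it. Of the 10 members, 9 are annotated as protein coding and Znf41-ps as an unprocessed pseudogene, a duplicated copy without a coding frame. A residue pattern of the KRAB box was found in the annotated product of each of the 9 coding genes. The number of C2H2 finger patterns in the longest product was 17 for Zfp600, 13 for Zfp980 and Zfp990 and 11 for Zfp984 and Zfp992. It was 10 for Zfp985, 7 for Zfp981 and Zfp982 and 2 for Zfp993. The annotated coding sequence of Zfp993, read as 313 codons, has 940 bases, which is not a whole number of codons. Its count may therefore be that of an incomplete product.

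How alike the members are is seen in a stretch of 75 bases, the length of 1 sequencing read, taken from a finger of each gene. The stretch was identical in Zfp984, Znf41-ps, Zfp992 and Zfp993, and it differed from that sequence at 2 to 6 positions in the other 6. The shared sequence is given first and then 3 members that differ from it, with capitals at the bases that differ from Zfp984. Each lies in a coding exon, and all are written 5′ to 3′ on the strand of the gene.
Zfp984, chr4:147755143-147755217, minus strand: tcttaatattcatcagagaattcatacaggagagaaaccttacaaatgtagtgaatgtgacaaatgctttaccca
Zfp990, chr4:145538119-145538193, plus strand: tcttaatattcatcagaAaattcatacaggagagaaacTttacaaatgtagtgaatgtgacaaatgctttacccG
Zfp982, chr4:147512955-147513029, plus strand: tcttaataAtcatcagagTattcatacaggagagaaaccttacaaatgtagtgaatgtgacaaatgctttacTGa
Zfp980, chr4:145701581-145701655, plus strand: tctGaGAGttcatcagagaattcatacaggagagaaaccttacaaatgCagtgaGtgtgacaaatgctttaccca
A read that begins at the first base of this stretch has the same letters in Zfp984, Znf41-ps, Zfp992 and Zfp993, while in Zfp990 and Zfp982 it carries 3 and 4 differences.

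Over whole genes, words of 31 bases were counted in all transcripts of the GENCODE M21 annotation. The share of a member's words found in no other gene was 70.3% for Zfp982, 60.6% for Zfp985, 50.6% for Zfp990, 50.1% for Zfp992, 40.1% for Zfp981 and 31.2% for Zfp984. It was 17.2% for Zfp980, 12.7% for Zfp600, 8.1% for Zfp993 and 6.6% for Znf41-ps. Zfp991, a coding neighbour in the span, held 88.2% of the words of Znf41-ps, 86.9% of those of Zfp993 and 41.7% of those of Zfp992. Gm13212, another coding neighbour, held 58.1% of the words of Zfp984, and Rex2 held 76.5% of those of Zfp600, 69.8% of those of Zfp980 and 44.8% of those of Zfp981. No gene held as much as 25% of the words of Zfp990, Zfp982 or Zfp985. The quantification divides a read that is compatible with several transcripts among them by a model, so that levels of genes with few words of their own can exchange reads.

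**Figure D1:**
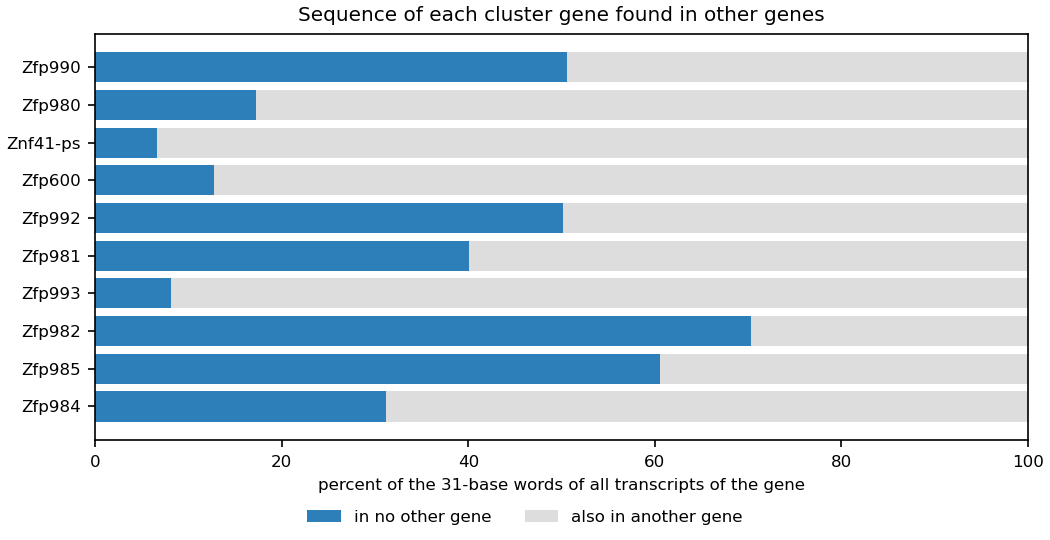
Share of the 31-base words of each cluster gene that occur in no other annotated gene (blue, x axis in percent) and that also occur in another gene (grey), with genes in order of position. Znf41-ps at 6.6% and Zfp993 at 8.1% had the least sequence of their own and Zfp982 at 70.3% the most.

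Levels are given as deposited, as TPM over the size factor of the library, summed per gene. TPM is a share of the reads after correction for transcript length, so that genes can be compared. Of the 10 members, 6 had a mean of at least 1 over the 20 libraries and entered the fit across 13539 genes, namely Zfp984 (mean level 11.6), Zfp993 (11.3), Zfp990 (4.52), Zfp992 (3.57), Znf41-ps (3.19) and Zfp982 (1.07). The other 4 had mean levels of 0.711 (Zfp600), 0.669 (Zfp985), 0.664 (Zfp981) and 0.131 (Zfp980). The authors deposited a mean of the natural log of estimated counts, pooled over all 20 libraries and transformed back here. It was 23.6 reads for the main transcript of Zfp984 and 5.73 and 4.59 for those of Zfp990 and Znf41-ps. For Zfp990 and Znf41-ps, libraries of the genotype near 0 pull it below the depth of the other genotype. Single values of low genes can rest on few reads. A value of 0 is given as listed at 0, since a listed 0 can also be a failed division of shared reads. Libraries summed to between 900655 and 1111080.

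The listed levels of the cluster, summed without regard to length, were similar in both genotypes, while the listed shares of its members differed. The sum over the 10 members had its lowest, median and highest values at 28.9, 37.5 and 49.6 in WT and at 26.2, 37.6 and 47.9 in Tnfr2-/- libraries. Zfp984 made up a median of 45.5% of the sum in WT and 15.5% in Tnfr2-/- cultures, Zfp993 made up 16.2% and 50%, and Zfp990 made up 0.627% and 20.2%. With 8.1% of its words to itself, Zfp993 shares reads with near-copies, and its share depends on how these were divided. The length-weighted sum over Zfp993, Znf41-ps, Zfp992 and Zfp991, which counts longer transcripts more, differed by -0.63 (described below). That sum cannot show the direction of Zfp993 alone. The sums weighted by length over 2 sets of near-identical genes were lower in Tnfr2-/- cultures, with medians of 26.6 and 15.9 for the set with Zfp993 and of 21 and 8.80 for that with Zfp984. Of the 6 members tested, 3 did not overlap between the genotypes, with Zfp990 higher and Znf41-ps and Zfp984 lower in every Tnfr2-/- library. Across all tested genes 0.229% did not overlap, 20 genes (0.148%) with all Tnfr2-/- libraries above and 11 (0.0812%) with all below. The members were chosen for this contrast, and nothing is read from that count, which was 5 without WT mouse 1, where 0.842% of all genes did not overlap.

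Zfp990, the member nearest to Tnfrsf1b, had levels of 0, 0.23 and 1.27 (lowest, median, highest) in WT and of 3.18, 6.88 and 17.9 in Tnfr2-/- libraries. All 10 Tnfr2-/- values stood above the highest WT value, and 2 WT libraries were listed at 0. The difference, Tnfr2-/- minus WT, was 2.71 (SE 0.215, n = 10 libraries per genotype) on the scale log2(level + 1), which understates the change of low genes. On this scale and with this n, the differences of the other members are given below.

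Znf41-ps, the pseudogene, showed the opposite pattern. Its levels were 3.81, 5.69 and 11.5 in WT, while 8 of 10 Tnfr2-/- libraries were listed at 0 and the others were at 0.533 and 1.29. No Tnfr2-/- value reached the lowest WT value, and the difference was -2.62 (SE 0.197).

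Zfp984, the member with the highest level in WT, had 11.1, 18.0 and 20.2 in WT and 3.27, 5.41 and 9.58 in Tnfr2-/- libraries. The highest Tnfr2-/- value stood below the lowest WT value, and the difference was -1.5 (SE 0.165). The gene gave 2 transcripts with coding sequences of the same length, 1644 bases, between which reads are divided by the model. Zfp984-201 had a median of 14.4 in WT and 3.46 in Tnfr2-/-. Zfp984-202 had medians of 3.20 and 1.99, with ranges of 0 to 13.8 and 0 to 5.75 that overlapped. The differences, -1.84 (95% interval -2.79 to -0.89) and -0.47 (-1.78 to 0.84), had overlapping intervals, and whether the transcripts differ was not tested.

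Zfp993 had 1.55, 7.05 and 11.7 in WT and 8.65, 15.4 and 29.5 in Tnfr2-/- libraries. The ranges overlapped, but on each of the 5 days both Tnfr2-/- libraries stood above both WT libraries, and the difference was 1.21 (SE 0.259). Zfp993-201 and Zfp993-202 were both listed higher. They had 8.68% and 8.1% of words in no other gene, so that shared reads can enter both. The short Zfp993-201, of 387 bases, had a median of 1.23 in WT and 5.92 in Tnfr2-/-, and Zfp993-202, of 1275 bases, had 4.08 and 7.68.

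Zfp982, the member with the most sequence of its own, had 0, 1.94 and 3.86 in WT, with 1 library listed at 0. In Tnfr2-/- cultures 6 libraries were listed at 0 and the highest was 0.502. Both Tnfr2-/- libraries stood below both WT libraries on 4 of 5 days, all but day 7, and the difference was -1.20 (SE 0.268). Zfp992 had 2.65, 4.29 and 6.31 in WT and 1.45, 2.73 and 3.52 in Tnfr2-/- libraries. Its ranges overlapped and its difference was the smallest of the 6, -0.54 (SE 0.161).

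The 4 members under the filter overlapped between the genotypes. Zfp981 was listed at 0 in 7 WT libraries, with the highest at 0.502, and it had 0, 1.19 and 2.59 in Tnfr2-/- libraries. In 6 of 10 Tnfr2-/- libraries it stood above the highest WT value. Zfp980 reached 0.16 in WT, where 8 libraries were listed at 0, and 1.01 in Tnfr2-/-, where 3 were. Zfp600 ranged from 0 to 2.13 in WT and from 0 to 2.89 in Tnfr2-/-, and Zfp985 from 0 to 2.0 and from 0 to 1.32. These 4 were left out of the fit.

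**Figure D2:**
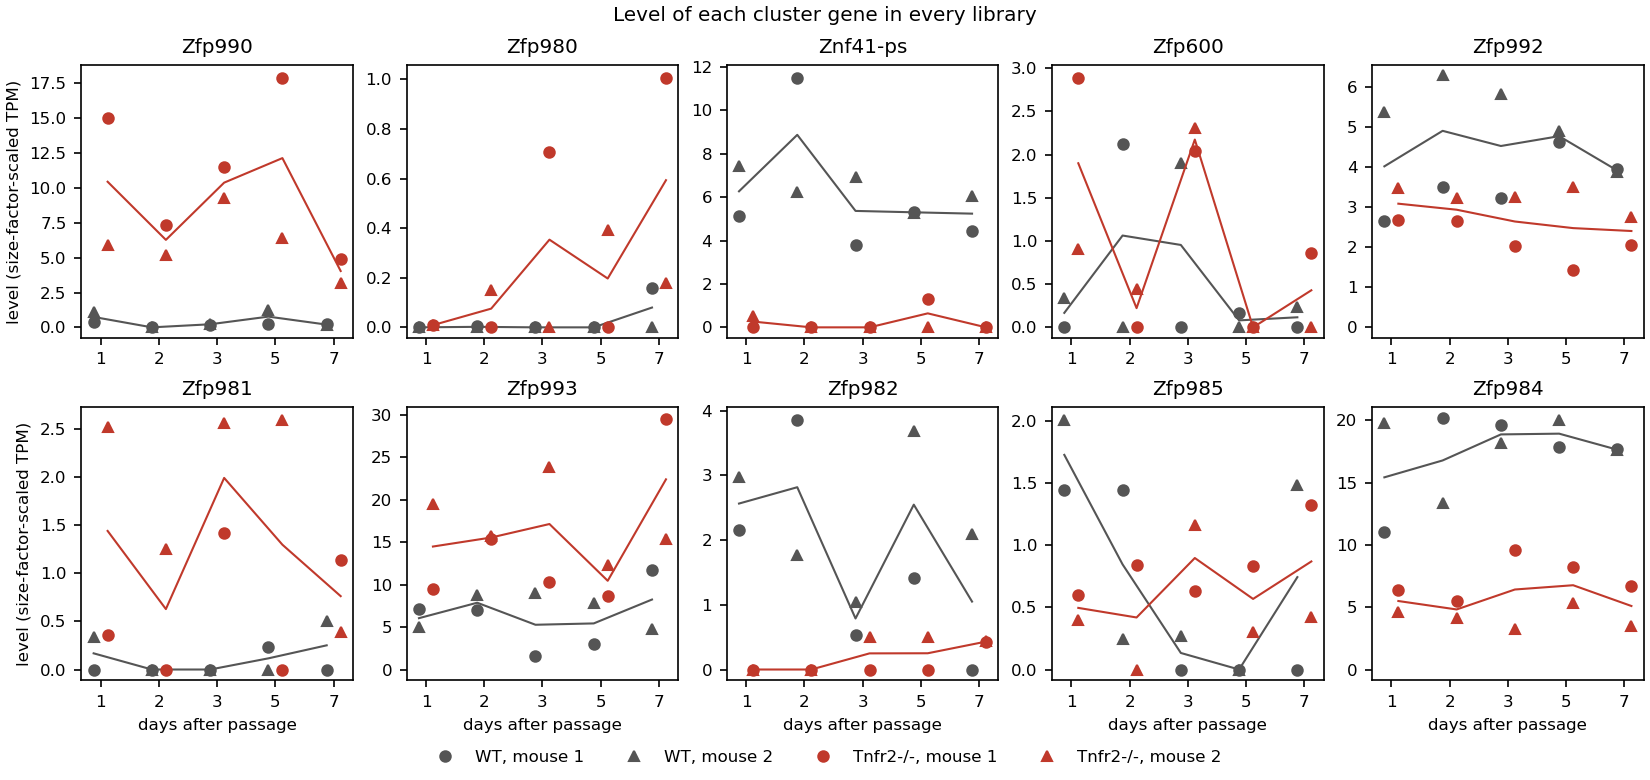
Level of each cluster gene (y axis, TPM divided by the size factor, own scale per panel) in every library against days after passage, with WT in grey and Tnfr2-/- in red, mouse 1 as circles, mouse 2 as triangles and lines through the mean of the 2 mice. The Tnfr2-/- libraries of Zfp990 lie between 3.18 and 17.9, above all WT libraries, and those of Znf41-ps between 0 and 1.29 and of Zfp984 between 3.27 and 9.58, below all WT libraries.

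In order of median level, WT cultures had Zfp984 first, then Zfp993, Znf41-ps, Zfp992 and Zfp982, with the other members under 0.26. The ranges of Zfp984 and Zfp993 met only in their extremes (11.1 against 11.7), while Zfp993, Znf41-ps and Zfp992 overlapped one another widely and Zfp992 and Zfp982 overlapped from 2.65 to 3.86. In Tnfr2-/- cultures the order was Zfp993, Zfp990, Zfp984, Zfp992 and Zfp981, and neighbours in it overlapped in range. The places of Zfp993 and Znf41-ps, with 8.1% and 6.6% of words of their own, depend on how shared reads were divided. The length-weighted set sum of -0.63 also holds Znf41-ps and Zfp992 and cannot show the direction of Zfp993 alone.

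Tnfrsf1b itself ranged from 11.1 to 21.9 in WT and from 2.71 to 11.5 in Tnfr2-/- libraries, with a difference of -1.35 (SE 0.167). These are sums over all its transcripts, and which part of the disrupted gene gave the Tnfr2-/- reads was not tested. By qPCR the paper reported Tnfr2 as entirely absent in knockout colonoids. Within 5 Mb of Tnfrsf1b, 77 other genes were tested. Of these, 5 (6.49%) differed by more than 1 in size, against 2.95% of all tested genes. The members did not move one way. Zfp990 was higher and Zfp982 and Zfp984 were lower in Tnfr2-/- cultures. Between them on the chromosome, Znf41-ps and Zfp992 were listed lower and Zfp993 higher. The length-weighted sum of these 3 with their near-copy Zfp991 was lower (-0.63).

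**Figure D3:**
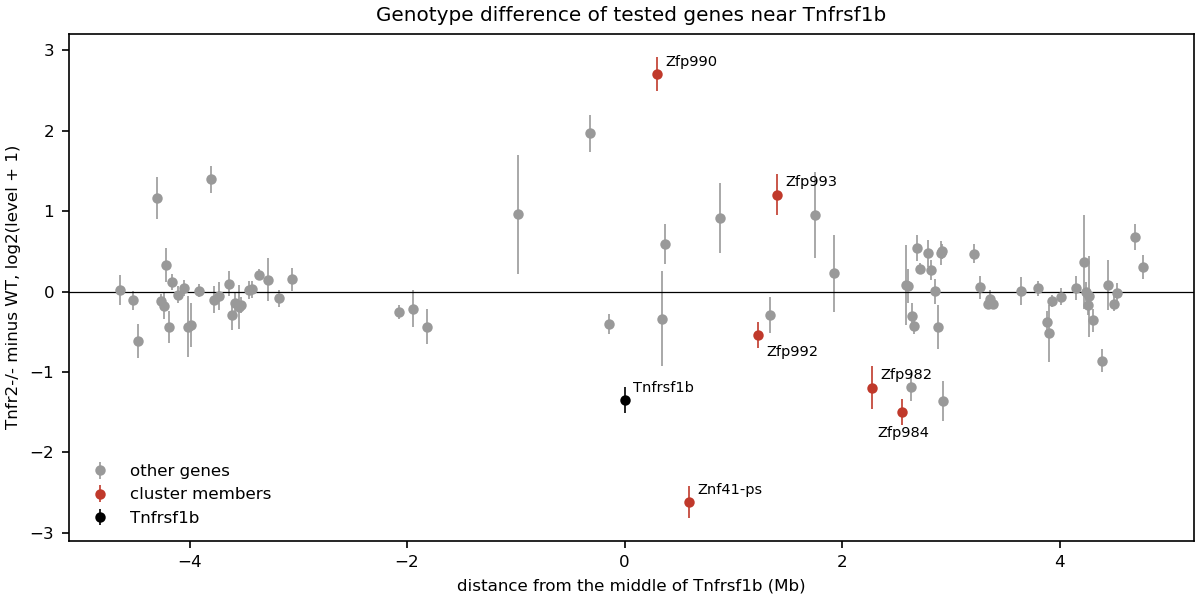
Difference between genotypes (Tnfr2-/- minus WT, log2(level + 1), bars 1 SE, 10 libraries per genotype) of tested genes against their distance from the middle of Tnfrsf1b in Mb, with cluster members in red, Tnfrsf1b in black and other genes in grey. Zfp990 at 2.71 and Znf41-ps at -2.62 lie farthest from 0 in this window, on opposite sides.

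Between the outermost members, 6 other genes were tested, and all of them overlapped between the genotypes. Zfp991, the near-copy of Znf41-ps and Zfp993, ranged from 0.694 to 11.6 in WT and from 0 to 34.1 in Tnfr2-/- libraries, with a difference of 0.22 (SE 0.484). Gm13212, which shares sequence with Zfp984, had medians of 2.54 and 3.25 and a difference of 0.59 (SE 0.247). The remaining 4 were Zfp987, Zfp989 and the processed pseudogenes Gm13226 and Gm13237, with differences between -0.34 and 0.96.

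Because reads can pass between near-identical genes, levels were also summed over them with each transcript weighted by its length, a choice made after the data were seen. Genes were joined where one held at least 25% of the words of another. The SE of a set came from the spread of the 10 libraries of each genotype, not from limma. It leaves out day and mouse and can be too small. The sum of Zfp984 and Gm13212 ranged from 12.3 to 23.6 (median 21) in WT and from 6.17 to 13.1 (median 8.80) in Tnfr2-/- cultures, with 9 of 10 Tnfr2-/- libraries below the lowest WT library. Its difference was -1.07 (SE 0.125), in the direction of Zfp984 alone. The sum of Znf41-ps, Zfp992, Zfp993 and Zfp991 ranged from 16.3 to 35.7 (median 26.6) in WT and from 11.1 to 21.1 (median 15.9) in Tnfr2-/-. Its difference was -0.63 (SE 0.16), smaller in size than the -2.62 of Znf41-ps. Zfp993 alone was at 1.21, but its transcripts, of 387 and 1275 bases, weigh less than the 2413 of Znf41-ps and 4550 of Zfp992. The set sum therefore cannot show the direction of Zfp993 alone. Both Znf41-ps and Zfp993 have under 10% of their words to themselves. How far their opposite differences are a division of shared reads was not tested. The sum of Zfp980, Zfp600, Zfp981 and Rex2 had medians of 0.419 in WT and 1.68 in Tnfr2-/-, with overlapping ranges. Zfp990 and Zfp982 joined no other gene, and their differences were as given.

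**Figure D4:**
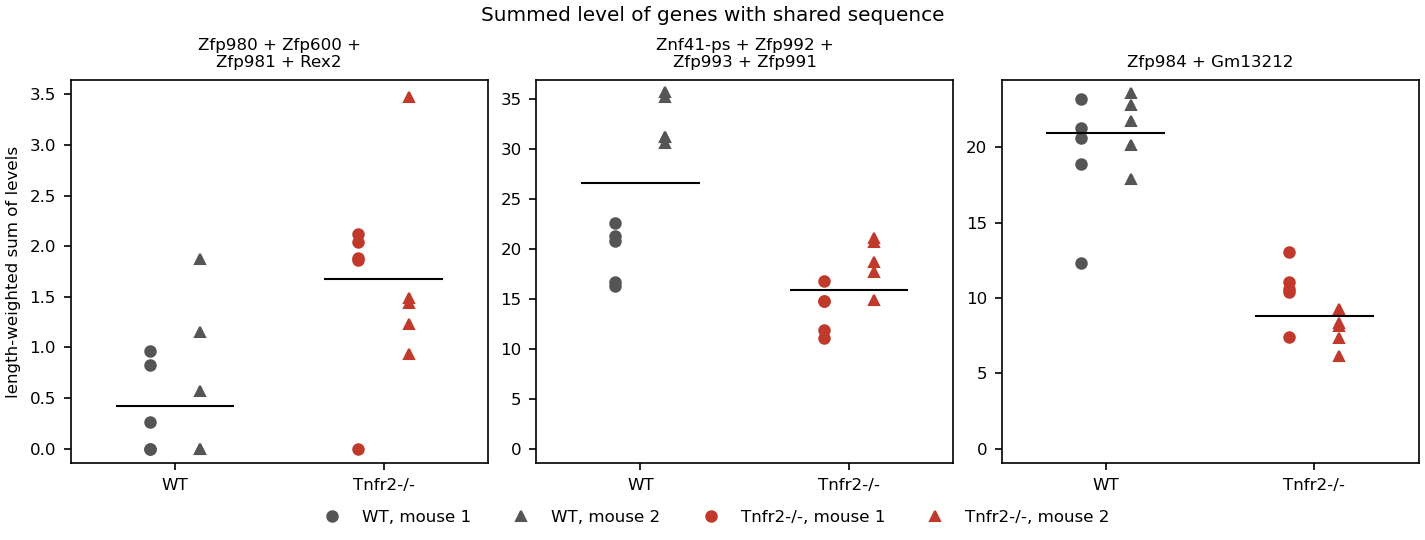
Length-weighted sum of levels over 3 sets of genes with shared sequence (y axis, own scale per panel) in WT and Tnfr2-/- libraries, with circles for mouse 1, triangles for mouse 2 and a line at the median of 10 libraries. The Zfp984 set falls from a median of 21 to 8.80, and in the Znf41-ps set the WT libraries of mouse 2, at 30.6 to 35.7, lie above those of mouse 1, at 16.3 to 22.6.

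The first question that the choice of members leaves free was whether the cluster changed as the colonoids grew, from the early phase (days 1, 2 and 3) to the late phase (days 5 and 7). No member passed the test. Over both genotypes 0 of 6 members were called by limma at an adjusted p under 0.05, against 32.7% of all tested genes. Zfp990, Znf41-ps and Zfp982 were near 0 in 1 genotype, so that part of their pooled change could hardly show. At an unadjusted p under 0.05 there were 0 members, against 42.6% of all genes. The changes on the log2 scale lay between -0.10 for Zfp992 (SE 0.18) and 0.11 for Zfp984 (SE 0.188). Their 95% intervals were widest for Zfp993, -0.59 to 0.65, and narrowest for Zfp992, -0.49 to 0.29. The smallest adjusted p among the members was 0.701.

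Within WT 0 of 6 were called, against 20.1% of all tested genes, and within Tnfr2-/- 0 of 6, against 20.3%. At an unadjusted p under 0.05 there were 0 in either, against 33.3% of all genes in WT and 32.6% in Tnfr2-/-. For 3 members these counts say little in 1 genotype, since they passed the filter through the other. Znf41-ps was listed at 0 in 8 and Zfp982 in 6 of 10 Tnfr2-/- libraries, and Zfp990 had a median of 0.23 in WT, levels at which a change with time or between mice could hardly be called. In WT the change was largest for Znf41-ps, at -0.26 (SE 0.285), whose early libraries ran from 3.81 to 11.5 and late libraries from 4.42 to 6.06. In Tnfr2-/- it was 0.31 for Zfp982 (SE 0.355) and -0.31 for Zfp990 (SE 0.319), whose early libraries ran from 5.18 to 15.02 and late ones from 3.18 to 17.9. Early and late libraries overlapped in each of these. Among the 6 tested members, Zfp984 was slightly higher late in all 4 mice, by 0.08 to 0.14, and no other moved one way in all 4. Zfp600, under the filter and not tested, was lower late in all 4, at -0.44 and -0.50 for WT and at -0.74 and -1.06 for Tnfr2-/- mice 1 and 2. The interaction, the change in Tnfr2-/- minus that in WT, was called for 0 of 6 members, against 0.148% of all genes, and 0 had an unadjusted p under 0.05, against 11.7%. At so low a share a count of 0 among 6 says little, and for Zfp990, Znf41-ps and Zfp982, near 0 in 1 genotype, an interaction could hardly be called. Its intervals were wide, from -1.44 to 0.51 for Zfp990 and from -0.41 to 1.33 for Znf41-ps. Among the 8 member transcripts with a mean level of at least 1, 2 of which are copies of 1 Zfp992 transcript with equal values, 0 were called over both genotypes, against 8.3% of all transcripts. At an unadjusted p under 0.05 there were 0, against 21.2%. The same limit holds for the transcripts of Zfp990 and Znf41-ps, near 0 in 1 genotype.

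Tnfrsf1b, the targeted gene, was called over both genotypes (0.55, SE 0.128, adjusted p 0.0051 by limma) and within Tnfr2-/-, but not within WT. The change over both was 0.44 without WT mouse 1 and 0.46 without Tnfr2-/- mouse 2. Within Tnfr2-/- cultures Tnfrsf1b rose from early to late by 1.02 (SE 0.181, adjusted p 0.00191 by limma). It ran from 2.71 to 5.52 early and from 7.59 to 11.5 late, without overlap. Its interval, 0.63 to 1.41, overlapped those of 4 of the 6 members in the same cultures, such as Zfp982 at -0.46 to 1.07, and a difference between Tnfrsf1b and the members was not tested. In WT its change was 0.08 (SE 0.181), and the interaction of 0.94 (SE 0.256) did not pass after adjustment (adjusted p 0.182 by limma). Without either Tnfr2-/- mouse the call of the rise was lost, with changes of 1.19 and 0.85, and of all 13539 genes 2 and 3 were then called.

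**Figure D5:**
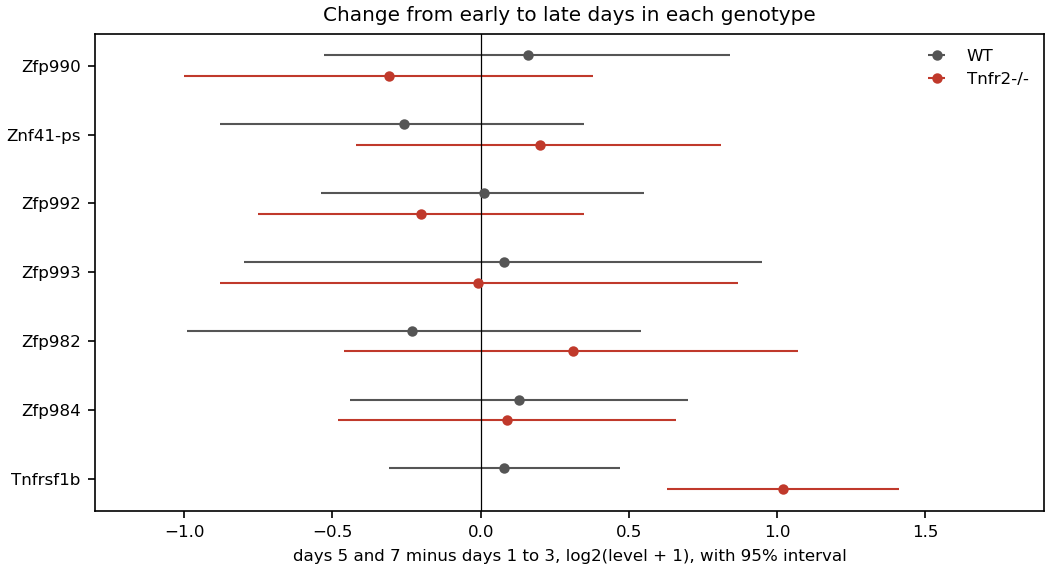
Change from days 1 to 3 to days 5 and 7 on the scale log2(level + 1) (x axis, points with 95% intervals) in WT (grey) and Tnfr2-/- (red) for the 6 tested members and Tnfrsf1b. All 12 intervals of the members include 0, and that of Tnfrsf1b in Tnfr2-/- cultures lies between 0.63 and 1.41.

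The second free question was whether the 2 mice of a genotype differed. No member passed the test in either genotype, 0 of 6 against 1.29% of all genes in WT and 0 of 6 against 0.0222% in Tnfr2-/-. With shares this low, a count of 0 among 6 says little. At an unadjusted p under 0.05 there were 0 members in WT, against 19.2% of all genes, and 3 in Tnfr2-/-, against 8.27%. Zfp990 in Tnfr2-/- cultures ran from 4.91 to 17.9 in mouse 1 and from 3.18 to 9.26 in mouse 2, lower in mouse 2 on 5 of 5 days, with a difference of -0.76 (SE 0.205, adjusted p 0.367 by limma). Zfp984 ran from 5.51 to 9.58 in mouse 1 and from 3.27 to 5.3 in mouse 2 and was also lower on 5 of 5 days, with -0.68 (SE 0.187, adjusted p 0.381 by limma). Zfp992 went the other way, from 1.45 to 2.69 in mouse 1 and from 2.76 to 3.52 in mouse 2, with 0.43 (SE 0.182, adjusted p 0.602 by limma). For Zfp984 and Zfp992 the 5 libraries of 1 Tnfr2-/- mouse did not overlap those of the other. The share of all genes without overlap between these mice was not counted, and nothing is read from this.

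Among the members and the other tested genes of the span, the WT mice differed most in the near-copy Zfp991, which ran from 0.694 to 4.5 in mouse 1 and from 8.37 to 11.6 in mouse 2, without overlap. Its difference of 1.51 (SE 0.269) had an adjusted p of 0.0523 by limma and did not pass. The length-weighted sum of Znf41-ps, Zfp992, Zfp993 and Zfp991 was higher in mouse 2 on 5 of 5 days in both genotypes, at 30.6 to 35.7 against 16.3 to 22.6 in WT and at 14.9 to 21.1 against 11.1 to 16.8 in Tnfr2-/-. The medians of this sum were 20.7 and 31.2 in WT mouse 1 and mouse 2 and 14.8 and 18.7 in Tnfr2-/- mouse 1 and mouse 2, so that both WT medians lay above both Tnfr2-/- medians.

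Upstream of the genes, promoters of 7 members were found in RefSeq (GRCm38.p6, 250 bases before to 50 after each start). At 1 start each, 6 of them carried the word ATTGGGCGG, in which the reverse of a CCAAT box overlaps the GC box word GGGCGG by 2 letters. It was searched on both strands and was present in 0.256% of all promoters of this length, while CCAAT was present in 37.4% and GGGCGG in 35.7%. These 6 promoters were 77.1% to 90.6% identical in pairs, so that the word comes with a longer shared sequence and is not 6 separate finds. Nothing is read from its share among all promoters. The 30 bases around the word, on the strand of the gene and with the word in capitals, are shown because members with this start differ so much in level.
Zfp980, chr4:145670614-145670643, plus strand: gctggtgagtATTGGGCGGgtccagaagga
Zfp600, chr4:146156750-146156779, plus strand: gctggtgagtATTGGGCGGgtccagaagga
Zfp981, chr4:146514815-146514844, plus strand: gctgctgaatATTGGGCGGgttcagaagga
Zfp982, chr4:147492324-147492353, plus strand: gctggtgagtATTGGGCGGgtccagaagga
Zfp985, chr4:147553199-147553228, plus strand: gctgctgagtATTGGGCGGgtccagaagga
Zfp984, chr4:147809855-147809884, minus strand: gctgctgaatATTGGGCGGgtccagaaggc
The word began between 67 and 95 bases before the start. The 30 bases were the same in Zfp980, Zfp600 and Zfp982, whose mean levels were 0.131, 0.711 and 1.07, and the mean level of Zfp984 was 11.6. A match is a description of the letters and not of a bound factor.

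Genes whose levels followed a member from library to library were named after the mean of each genotype was subtracted, as a description over 20 libraries that share mice, days and depth. The genes named outside the cluster were picked for the highest r among 13539 genes, so that a high r need not mark a relation. Zfp984 was most like AL731810.1 (Pearson r 0.855), Rock1, a kinase of the actin cytoskeleton (0.822), and AC140267.1 (0.768). Zfp990 was most like Amd1, an enzyme of polyamine synthesis (0.744), Inafm2 (0.675) and Zfp949 (0.65). The closest genes were Eif4g3 for Znf41-ps (0.801), Commd4 for Zfp992 (0.755), Adamtsl5 for Zfp993 (0.744) and Cacng7 for Zfp982 (0.8). For Znf41-ps and Zfp982, listed at 0 in 8 and 6 of 10 Tnfr2-/- libraries, r rests mainly on the 10 WT libraries. For Zfp990, with a WT median of 0.23, it rests more on the 10 Tnfr2-/- libraries. Among the members the highest value was 0.52, between Zfp990 and Zfp984, and the lowest was -0.388, between Zfp993 and Zfp984. In Tnfr2-/- cultures Zfp990 and Zfp984 were both lower in mouse 2 on 5 of 5 days.

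The wider pathway was described from lists. The list of the corepressor machinery held 28 genes, all tested, among them the KRAB zinc finger gene Zfp57. Within WT 2 passed the test of late against early as higher and 6 as lower (28.6% against 20.1% of all genes). Within Tnfr2-/- 1 was higher and 6 were lower (25% against 20.3%). Over both genotypes 15 passed, 5 higher and 10 lower (53.6% against 32.7%), with a median change of -0.14 against 0.01 for all genes. Those that fell were led by Uhrf1 at -0.98 (SE 0.141, adjusted p 1.80e-04 by limma) and Dnmt1 at -0.64 (SE 0.099, adjusted p 3.21e-04 by limma), both of which maintain DNA methylation, and by Suv39h1, a histone H3 lysine methyltransferase, at -0.86 (SE 0.0778, adjusted p 6.76e-06 by limma). Suv39h1 ran from 17.8 to 28.1 early and from 11.5 to 12.8 late, without overlap. Dnmt3a, a de novo DNA methyltransferase, rose by 0.69 (SE 0.136, adjusted p 0.00158 by limma). Without Tnfr2-/- mouse 1 or mouse 2 the count fell to 7 or 5, while that of all genes called fell from 4424 to 1619 or 1846. Of 39 KRAB zinc finger genes outside the cluster, 32 were tested and 2 passed, Zfp568 lower by -0.30 and Zfp445 higher by 0.22 (6.25% against 32.7%). That count was 4 without WT mouse 1 on day 3, 0 without either Tnfr2-/- mouse, and 1 without WT mouse 1, without WT mouse 2 on day 7, or without any 1 Tnfr2-/- library of day 5 or 7. Of the 6 other genes tested in the span, the processed pseudogene Gm13237 passed, at -0.91 (SE 0.228), though not without either Tnfr2-/- mouse, and no KRAB zinc finger gene did.

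The cultures held other cells beside epithelium. All 9 epithelial markers were present, with a summed level of 11680 to 19310 (median 15540) in WT and 13080 to 19770 (median 18090) in Tnfr2-/-. All 8 fibroblast markers were present, at 1184 to 4164 (median 3420) and 3043 to 8424 (median 4401), with overlapping ranges. Of 6 leukocyte and 3 endothelial markers, 1 each had a mean of at least 1, and the summed levels stayed at or below 7.83 and 4.17. In bulk RNA, fewer cells of a type and less RNA per cell cannot be told apart, and the part of these levels in the members' differences was not tested.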

How the data were processed

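Stranded mRNA libraries of 20 colonoid cultures were sequenced as single-end reads. Per the labels, the submitters' processing notes name CASAVA, kallisto, sleuth and mm10; the transcript set was not given in the sources used here. The authors deposited a signal per transcript, TPM divided by a size factor per library, together with a mean on the natural log (ln) scale of estimated counts, which was back-transformed here only to show depth. Test statistics, p-values and q-values that the authors deposited were not used. Of 113974 lines, 781 repeats with identical values were dropped and 199 transcripts without a gene identifier were left out. Transcripts were summed per symbol, which joins the copies of Zfp600 and Zfp992 on an alternate locus.

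Members and lists were chosen with earlier results of these data known. Groups and replicate numbers came from the sample titles, the design text gives 2 mice per genotype, and the replicate number was read as the mouse, the reading that the sample descriptions also allow. Values were transformed as log2(value + 1), and genes with a mean of at least 1 were fitted with limma 3.58.1 (R 4.3.3), its prior variance following the mean level and p-values adjusted by Benjamini-Hochberg over all of them, in a model of 10 group means for time and interaction, of day plus genotype for the genotype difference, and of day plus mouse within a genotype. Libraries of a mouse were treated as independent, which can make errors of the genotype difference too small. The pairing of days rests on that reading: differences of mouse 2 minus mouse 1 correlated between days with r of 0.0997 to 0.307 (median 0.203) in WT and of -0.0511 to 0.08 (median 0.0386) in Tnfr2-/-, where they do not show it by themselves. On simulated data for late against early over both genotypes, with 13539 genes and 200 changed, 82% of log2 changes of 1 and 95% of changes of 2 were recovered, with 2.75% false calls. Text names all members and Tnfrsf1b, member transcripts with a mean of at least 1, up to 4 called genes of a list by size of change, and the 3 genes most like a member by Pearson r. Gm13212, Rex2 and the other tested genes of the span were named after their values were seen. Coordinates and transcripts were from GENCODE M21 (GRCm38) and promoters from RefSeq (GRCm38.p6). Alternatives were 2 other pseudocounts, 2 other filters, a rescaling, leaving out libraries or mice, a replicate block, mouse means and 2 other sums per gene.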

Additional observations from a re-analysis of the deposited data

Results flagged for a closer look

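In groups of 4 to 10 libraries, 7 of 36 groups of member levels had a highest or lowest library far from the others by Dixon's ratio on log2(level + 1); chance alone flags about 1 in 20 groups, a share that does not apply to the 3 groups with a ratio of 1, where the other libraries were all listed at 0 and any other value would stand apart. Groups by phase and by genotype share libraries. In WT late libraries, mouse 2 on day 5 was the highest for Zfp990 (level 1.28, ratio 0.89) and for Zfp984 (level 20, ratio 0.882). For Znf41-ps in Tnfr2-/-, mouse 1 on day 5 (level 1.29) stood apart over all days (ratio 0.484) and in the late phase (ratio 1), and mouse 2 on day 1 (level 0.533) in the early phase (ratio 1), the other libraries being listed at 0. For Zfp982 in Tnfr2-/-, mouse 2 on day 3 (level 0.499) stood apart in the early phase (ratio 1), and mouse 1 on day 5, listed at 0, in the late phase (ratio 0.867). No member passed the test of the interaction of genotype and phase.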

How the results depend on the processing

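The 4 counts of members called for time or interaction and the 2 for mouse against mouse were 0 under each alternative run, and so was that of member transcripts; the replicate block gave 0 for time and interaction too and changed no call of a member. In several settings almost no gene was called, so that a count of 0 there says nothing of stability: 2 and 3 of all genes for time in Tnfr2-/- without a Tnfr2-/- mouse, 0 for the interaction in those settings and on mouse means, 0 for the WT mice without a WT library of day 5, and 0 or 1 for the Tnfr2-/- mice without any 1 library. For the WT mice almost no gene was called either without a WT library of day 3, and 0 with no filter on low values. For the Tnfr2-/- mice 3 of all genes were called as reported. The count of members that did not overlap between genotypes, 3 as reported, was 3 to 5 with a library or mouse left out (5 without WT mouse 1, where 0.842% of all genes did not overlap) and 6 of 6 on mouse means, where 2 mice face 2 and 45.2% of all genes did not overlap.

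Left-out libraries and mice moved the list counts of late against early over both genotypes, 5 to 15 for the corepressor genes (7 without Tnfr2-/- mouse 1 and 5 without Tnfr2-/- mouse 2), 0 to 4 for the other KRAB zinc finger genes (4 without WT mouse 1 on day 3, 0 without either Tnfr2-/- mouse) and 0 to 1 for the other genes of the span. Without Tnfr2-/- mouse 1 or 2 the count of all genes fell from 4424 to 1619 or 1846. Dropping a mouse removes samples; other causes were not tested.

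On the log2 scale, pseudocounts of 0.5 and 5 moved the genotype difference of Zfp990 to 3.33 and 1.27 and of Znf41-ps to -3.40 and -1.10, and 5 moved that of Zfp982 to -0.40 and of Zfp984 to -1.08, as the scale implies. The length-weighted sum over near-identical genes, added after seeing the data, gave -0.63 for the set of Znf41-ps and Zfp993 and -1.07 for that of Zfp984. The first was opposite in sign to Zfp993 alone, whose direction it cannot show. With libraries or mice left out, late against early, as a range, took both signs for Zfp990 in Tnfr2-/- (-0.65 to 0.03), Znf41-ps in Tnfr2-/- (-0.21 to 0.60), Zfp992 in WT (-0.35 to 0.36), Zfp993 in Tnfr2-/- (-0.47 to 0.45), Zfp982 in WT (-0.88 to 0.43) and over both genotypes (-0.29 to 0.37) and Tnfrsf1b in WT (-0.13 to 0.29), as did the interaction for Zfp982 (-0.12 to 1.19), none past the threshold. Those moved by over 1 SE; 74 other single-gene values changed sign by less than 1 SE, among them interactions of Zfp993, Zfp992 and Zfp984. Tnfrsf1b lost its call in Tnfr2-/- without either Tnfr2-/- mouse (1.19 and 0.85), where 2 and 3 of all genes were called.

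Depth limits members of few reads, above all those listed at 0.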
